A study of Vitis vinifera and Vitis x champinii x Vitis riparia and Vitis cinerea var. helleri x Vitis rupestris with 22 samples.

Results

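The roots of K51-40 and of Cabernet Sauvignon were compared for how their transcripts responded to the same chloride treatment. For each probe the salt response was the mean log2 value of the salt arrays minus that of the control arrays, and the quantity tested was the response in K51-40 minus the response in Cabernet Sauvignon. This used 16 of the 22 arrays of the series, 4 in each of the groups K51-40 control, K51-40 salt, Cabernet Sauvignon control and Cabernet Sauvignon salt. All 16 arrays were chosen by their labels and none by a measured value. K51-40 is a cross of Vitis champinii and Vitis riparia, and Cabernet Sauvignon is Vitis vinifera. The plants were rooted leaves grown in aerated nutrient solution. Control plants stayed in nutrient solution with 0 mM added chloride, and salt plants received 50 mM chloride as a mixture of sodium, calcium and magnesium salts for 4 days. Each array held total root RNA, and per the methods 4 rooted leaves were pooled for each replicate. Another hybrid, 140 Ruggeri (Vitis berlandieri by Vitis rupestris), had 6 arrays under the same control and salt treatments, which entered the fit only through the shared estimate of the spread.

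Grapevine rootstocks are known to differ in how much chloride their roots pass to the shoot. Chloride enters the xylem through anion transporters and channels of the root, many of which also carry nitrate, so families such as NRT1 (nitrate and peptide transporters), SLAC/SLAH and ALMT (anion channels) and CLC (chloride channels and exchangers) are the usual candidates. Roots under salt also adjust water flow through aquaporins, cell wall composition, compatible solutes such as the raffinose sugars, and phenolic compounds. In grapevine the phenolics include stilbenes such as resveratrol, made by stilbene synthase from the same precursors that chalcone synthase directs into flavonoids.

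The transcripts of 2 genes described below, a nitrate transporter that fell and an aquaporin that rose with salt in K51-40, both with a called difference from Cabernet Sauvignon, can be identified by the quantitative PCR primers the study designed for them. These primers are shown in full, 5′ to 3′, because they let these transcripts be followed outside the array. They are not the array probes.
NRT1.4 forward primer: tggaagaaatggagaggaaa
NRT1.4 reverse primer: ctaatgggaagagtagcagt
TIP2;3 forward primer: gtcttggctccattgttgct
TIP2;3 reverse primer: ggtggcgtagacagtgtaga

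The arrays carried 52478 gene probes for 26241 predicted genes, and 26237 of these genes had 2 probes. Between 72.5% and 82.0% of spots on an array were well above background and none was saturated, and the number of arrays limits the precision. The arrays were scanned on 2 dates, and each of the 4 groups had arrays on both. In 1 library the raw scan went against its label. The scan deposited for Cabernet Sauvignon control replicate 3 correlated at r = 0.930 with its own column of the processed values and at 0.989 with that of K51-40 control replicate 1, while every other scan correlated with its own column at 0.992 or more. In the processed values its column correlated with the other Cabernet Sauvignon arrays at 0.989 to 0.996. Results are from the processed values, and the counts are given below also without that array. The probes were designed on Vitis vinifera gene predictions, so a level in K51-40 may reflect a poorer sequence match as well as transcript amount. The response within each variety was therefore compared, and the part of sequence match in the levels was not tested. The gene names and annotations come from lists the study made from these same arrays, which cover 2731 genes.

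The salt response differed between K51-40 and Cabernet Sauvignon for a small part of the root transcriptome. A probe was called when the limma adjusted p was at most 0.05 and the difference on the log2 scale was at least 0.5. This held for 353 probes, or 0.673% of all probes, of which 158 (0.301%) were higher in K51-40 and 195 (0.372%) lower. They belong to 274 genes (1.04% of genes), 127 higher in K51-40 (0.484%) and 147 lower (0.56%). The called differences ran from −3.34 to 2.59, and the median over all probes was 0.00. No called probe had a called response in the same direction in both varieties.

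The responses within each variety set the background for these classes. In K51-40, 2.1% of probes changed with salt (495 up, 607 down), in Cabernet Sauvignon 0.798% (285 up, 134 down), and in 140 Ruggeri 0.0343% (17 up, 1 down). Of the genes whose responses differed, 159 had a called response in K51-40 only and 57 in Cabernet Sauvignon only. The K51-40 genes were evenly divided, 80 higher and 79 lower with salt. The Cabernet Sauvignon genes were mostly higher, 39 against 18. A further 2 genes had a called response in both, in opposite directions, and 65 had none in either variety alone. A gene with 2 called probes can be counted in 2 classes. A response called in 1 variety only does not by itself show that the other variety did not respond, and the test of the difference is what places these genes here. Leaving out single arrays moved the count of 274 genes to between 149 and 360. It was lowest without K51-40 control replicate 4 (149), Cabernet Sauvignon control replicate 2 (156), Cabernet Sauvignon control replicate 3 (162), Cabernet Sauvignon salt replicate 3 (165) or K51-40 control replicate 2 (171). Without the same arrays, in the same order, the genes called in K51-40 only numbered 81, 102, 102, 101 and 101, and those in Cabernet Sauvignon only were fewest (36) without Cabernet Sauvignon control replicate 3.

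**Figure D1:**
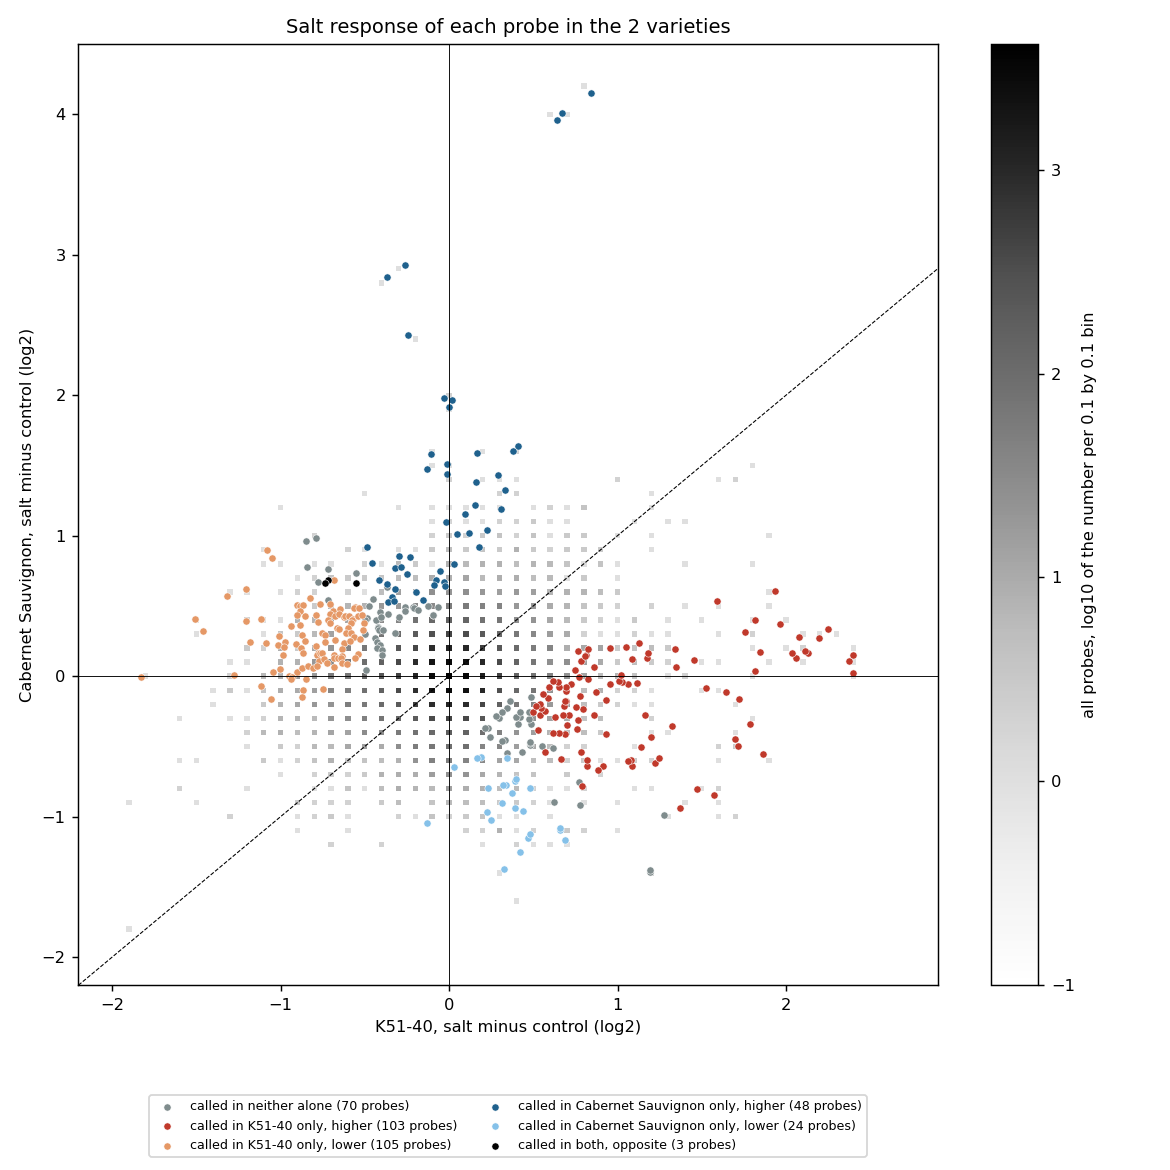
Salt response (salt minus control, log2) of each probe in K51-40 on the horizontal axis and in Cabernet Sauvignon on the vertical axis, with grey squares for the number of all probes (log10) and coloured points for the 353 called probes. The dashed line marks equal responses. The 103 red and 105 orange points called in K51-40 only lie along the horizontal axis, and the 48 dark blue points include 3 at about 4 in Cabernet Sauvignon.

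Genes with responses of opposite sign were few. In 35 genes (49 probes) the called difference joined responses of at least 0.5 in size with opposite signs, 20 genes higher in K51-40 and 15 lower. These 35 overlap with the classes above, since for most of these probes the response passed the test in 1 variety only. Among all probes, the control and salt arrays did not overlap in K51-40 for 7.47% and in Cabernet Sauvignon for 9.04%. They overlapped in neither variety and lay in opposite directions for 121 probes (0.231%), against 436 (0.831%) in the same direction. The count of 35 fell to between 19 and 23 without Cabernet Sauvignon control replicate 1, 2 or 3, K51-40 control replicate 2 or 4, or Cabernet Sauvignon salt replicate 3, and rose to 61 without K51-40 salt replicate 4.

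The nitrate transporter NRT1.4 (VIT_11s0016g05170) was the 1 gene called among 90 listed anion transporter genes, a share of 1.11% beside 1.04% of all genes. Its Arabidopsis relative is a low-affinity nitrate carrier of the leaf petiole. The K51-40 control arrays measured 7.11, 7.32, 7.71 and 7.90 and the salt arrays 5.77, 6.11, 6.86 and 6.96. The Cabernet Sauvignon arrays were at 6.15, 6.39, 6.55 and 6.59 in control and at 7.00, 7.23, 7.27 and 7.77 in salt. The control and salt arrays overlapped in neither variety, with salt below control in K51-40 and above it in Cabernet Sauvignon. It fell in K51-40 by 1.08 (SE 0.23, limma adjusted p = 0.0101), and its difference in Cabernet Sauvignon was 0.90 (adjusted p = 0.0599). The difference between the responses was −1.98 (SE 0.32, 95% interval −2.64 to −1.31, limma adjusted p = 0.00442). Its other probe gave −1.89 (limma adjusted p = 0.00792), and within the scan dates taken alone the difference was −2.19 and −1.79. It passed the test with each of the 16 arrays left out in turn. In 140 Ruggeri its response was 0.20.

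PGIP1 (VIT_08s0007g07690), a cell wall protein that inhibits fungal polygalacturonases, had the opposite signs. It was measured in K51-40 at 10.68, 10.85, 11.35 and 12.04 in control and at 12.11, 12.64, 13.14 and 13.31 in salt. Cabernet Sauvignon had it at 11.86, 12.29, 12.36 and 12.42 in control and at 10.86, 11.39, 11.62 and 11.67 in salt. Groups did not overlap in either variety, though the gap in K51-40 was narrow. It rose by 1.57 in K51-40 and its difference in Cabernet Sauvignon was −0.85 (adjusted p = 0.171), so that the responses differed by 2.42 (SE 0.39, 95% interval 1.60 to 3.23, limma adjusted p = 0.00483). The other probe gave 2.27. An unannotated gene, VIT_01s0011g04220, had a similar difference, 2.30 (SE 0.43, limma adjusted p = 0.0137), with 1.37 in K51-40 and −0.94 in Cabernet Sauvignon. VIT_02s0012g01350, also unannotated, fell by 1.08 in Cabernet Sauvignon (limma adjusted p = 0.00372) against 0.66 in K51-40 (adjusted p = 0.0576), a difference of 1.74 that its second probe gave as 1.75.

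Only 2 genes passed the test in both varieties in opposite directions, CSLG3 and VIT_19s0014g02770. CSLG3 (VIT_02s0025g01750) is a cellulose synthase-like gene. Its K51-40 arrays lay at 8.52, 8.59, 8.64 and 8.84 in control and between 7.95 and 8.24 in salt. Its Cabernet Sauvignon arrays lay at 9.28, 9.48, 9.50 and 9.64 in control and at 10.03, 10.14, 10.16 and 10.23 in salt. At this probe each of the 4 groups stood clear of the other 3. The second probe had K51-40 control above Cabernet Sauvignon control (means of 9.46 and 8.96), so the order of the varieties depends on the probe. CSLG3 fell by 0.55 in K51-40 (limma adjusted p = 0.0101) and rose by 0.66 in Cabernet Sauvignon (limma adjusted p = 0.00416), a difference of −1.22 (SE 0.16, limma adjusted p = 0.00086), with −1.40 for its second probe. VIT_19s0014g02770, for which the files give no function, fell by 0.72 in K51-40 and rose by 0.68 in Cabernet Sauvignon (limma adjusted p = 0.0107 and 0.028). The difference was −1.40 (SE 0.21, limma adjusted p = 0.00294). The number of genes in this strict class was 1 without Cabernet Sauvignon control replicate 2 or 3, 15 without K51-40 salt replicate 4, and 2 to 5 without any other array.

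OPR1 (VIT_18s0041g02010) belongs to the oxophytodienoate reductases, a family with a known role in jasmonate synthesis. It was at 8.45, 8.58, 8.79 and 8.94 in K51-40 control and at 7.64, 7.75, 7.85 and 8.23 in K51-40 salt. In Cabernet Sauvignon it was at 7.39, 7.42, 7.45 and 7.53 in control and at 7.74, 7.92, 7.97 and 8.39 in salt. The groups did not overlap in either variety. The responses differed by −1.38 (SE 0.19, limma adjusted p = 0.00152), with a called fall of 0.82 in K51-40 and a difference of 0.56 in Cabernet Sauvignon (adjusted p = 0.0524). The second probe of OPR1 gave −0.95 and was not called (limma adjusted p = 0.17). A gene annotated as a pollen protein of the Ole e I type (VIT_14s0068g01620) had −0.68 and 0.68, a difference of −1.36 (limma adjusted p = 0.00837). The calls of NRT1.4, PGIP1, CSLG3, VIT_19s0014g02770, OPR1 and the Ole e I gene held with each array left out in turn. That of VIT_06s0004g05200, with a difference of 1.52 (limma adjusted p = 0.027) and 0.02 at its second probe, held in 10 of 16.

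An EF hand gene (VIT_12s0059g00420, the calcium-binding motif of many signalling proteins), named here after its values were seen, had the widest called difference upward. Both of its probes gave it, 2.59 and 2.57 (limma adjusted p = 0.0319 and 0.0299). Neither response passed the test alone, at 1.19 in K51-40 (adjusted p = 0.114) and −1.39 in Cabernet Sauvignon (adjusted p = 0.102). The spread in K51-40 was wide, with means of 11.37 ± 0.83 in control and 12.56 ± 1.08 in salt (SD, n = 4), against 14.11 ± 0.22 and 12.72 ± 0.25 in Cabernet Sauvignon.

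**Figure D2:**
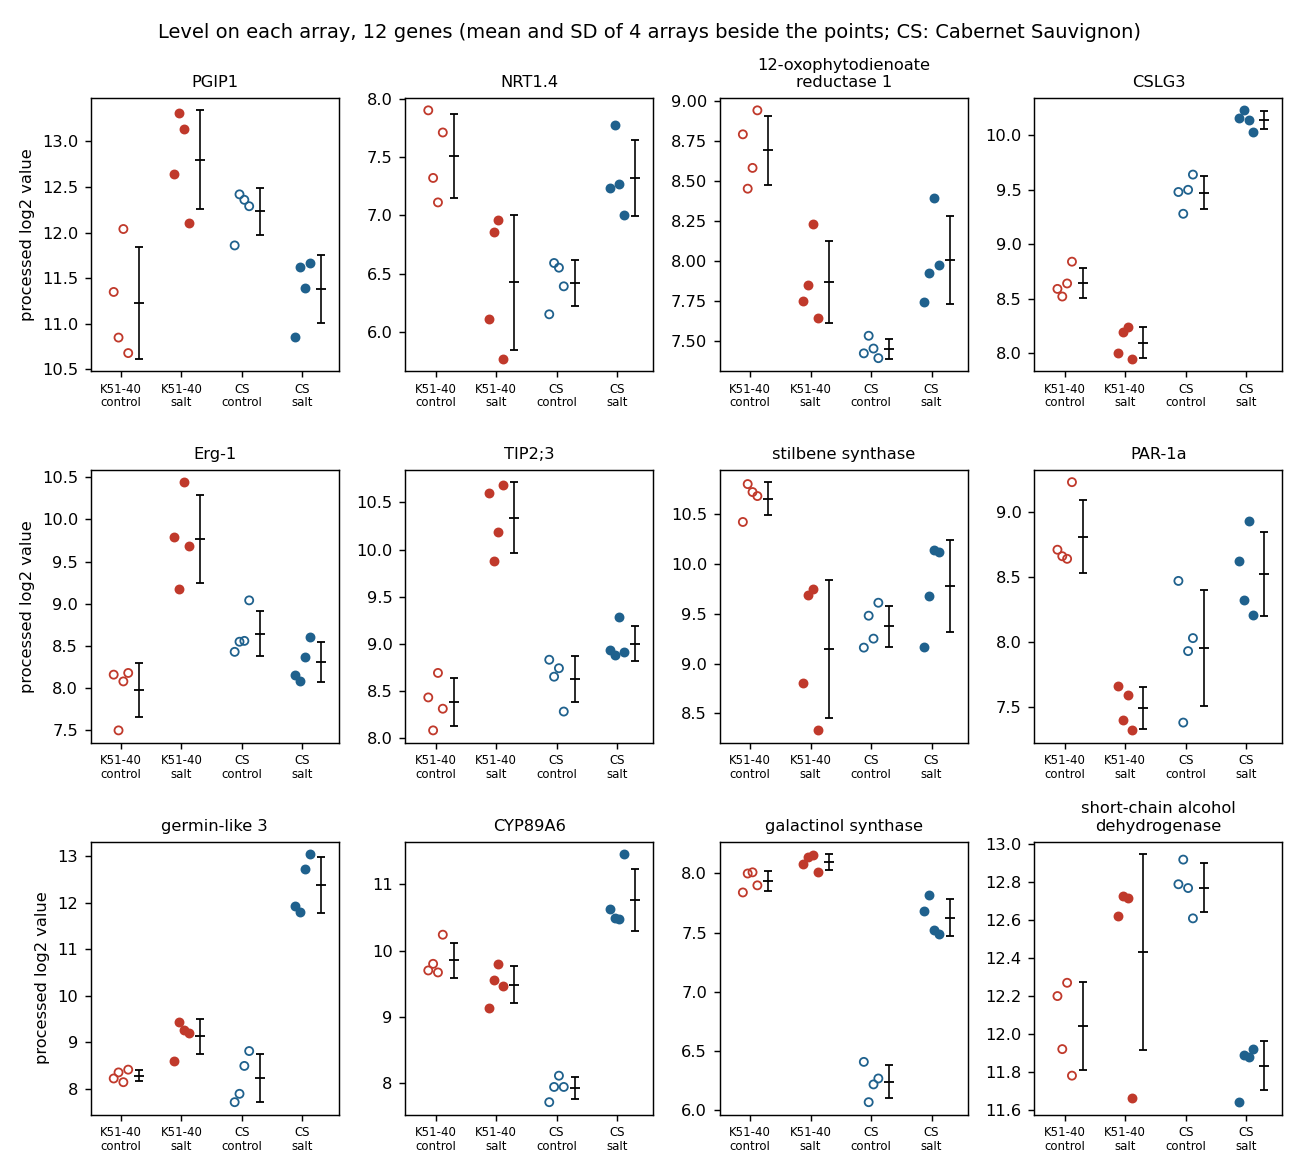
Processed log2 level of 12 genes on each array of the 4 groups, with open circles for control, filled circles for salt, red for K51-40 and blue for Cabernet Sauvignon, and the mean with SD of 4 arrays at the side. The vertical axes differ between panels and do not start at 0. In the top row the salt arrays lie on opposite sides of the control arrays in the 2 varieties, as for NRT1.4, where K51-40 fell by 1.08.

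Genes that rose with salt in K51-40 and had no called response in Cabernet Sauvignon included aquaporins, a MADS box gene and genes of the cell wall. The 103 probes of this class had a median response of 0.93 in K51-40, against −0.13 in Cabernet Sauvignon and 0.06 in 140 Ruggeri. TIP2;3 (VIT_00s0229g00130, annotated as TIP2;2 in the lists) encodes an aquaporin of the vacuolar membrane, a family that passes water and, in some members, ammonia. The K51-40 values were 8.08, 8.31, 8.43 and 8.69 in control and 9.88, 10.19, 10.60 and 10.69 in salt. The Cabernet Sauvignon values were 8.28, 8.65, 8.74 and 8.83 in control and 8.88, 8.91, 8.93 and 9.28 in salt. All K51-40 salt arrays lay above every other array, and the Cabernet Sauvignon groups did not overlap either but were close. It rose by 1.96 in K51-40 (limma adjusted p = 2.99e-06), its difference in Cabernet Sauvignon was 0.38 (adjusted p = 0.356), and the responses differed by 1.59 (SE 0.24, 95% interval 1.09 to 2.09, limma adjusted p = 0.0029). Its second probe gave 1.33. A second gene annotated TIP2;2 (VIT_00s2783g00010) had a difference of 1.44 (limma adjusted p = 0.0219), called in 13 of 16 when an array was left out. As near relatives the pair may share signal on the array.

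SVP (VIT_03s0017g00390), a MADS box transcription factor whose Arabidopsis relative represses flowering, rose by 2.12 in K51-40 (limma adjusted p = 0.000113). Its K51-40 arrays were at 7.57, 8.08, 8.16 and 8.29 in control and at 9.68, 10.27, 10.30 and 10.31 in salt. In Cabernet Sauvignon it was at 7.57, 7.69, 8.17 and 8.34 in control and at 7.53, 8.03, 8.16 and 8.77 in salt, and these groups overlapped throughout. The responses differed by 1.94 (SE 0.36, limma adjusted p = 0.0147). Erg-1 (VIT_07s0005g00870) was at 7.50, 8.08, 8.16 and 8.18 in K51-40 control and at 9.17, 9.68, 9.79 and 10.44 in salt, against 8.43 to 9.04 and 8.09 to 8.61 in Cabernet Sauvignon. It rose by 1.79 in K51-40, and the responses differed by 2.12 (SE 0.34, limma adjusted p = 0.00442).

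An unannotated gene with a wide difference, VIT_04s0044g00130, lay between 13.15 and 14.53 on the K51-40 control arrays and between 16.07 and 16.64 on the salt arrays. It rose by 2.40 with 0.02 in Cabernet Sauvignon, a difference of 2.37 (limma adjusted p = 0.00709). Its second probe, however, gave 0.03. The same disagreement was found for an annotated histone mRNA exonuclease (VIT_13s0084g00580, 1.97 against −0.08). For GSVIVT01019872001 both probes gave the difference, 2.27 (limma adjusted p = 0.0112) and 2.24. SVP, VIT_04s0044g00130, VIT_13s0084g00580, GSVIVT01019872001 and COX6b (VIT_02s0012g00490, below) had a similar order of arrays. In each, 140 Ruggeri salt replicate 2 was highest and replicate 3 lowest of that group. Cabernet Sauvignon control replicates 1 and 2 lay above 3 and 4. These probes may share signal, which was not tested, so they may not be separate genes. A polygalacturonase of family GH28 (VIT_05s0094g01300), an enzyme that degrades pectin, rose by 1.32 in K51-40 with a difference of 1.67 (limma adjusted p = 0.0131). Among genes named after their values were seen, a lactoylglutathione lyase (VIT_09s0002g06420), of the methylglyoxal detoxification pathway, rose from 8.63 ± 0.42 to 10.88 ± 0.31 in K51-40 (SD, n = 4) against 8.70 ± 0.34 and 9.04 ± 0.33 in Cabernet Sauvignon. The responses differed by 1.92 (limma adjusted p = 0.0107).

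Several differences passed the test narrowly. HSP17.6 (VIT_13s0019g02740, a small heat shock protein) had a difference of 0.70 (limma adjusted p = 0.0449). A pair of late embryogenesis abundant proteins, which protect cells under dehydration, had 1.05 (VIT_06s0004g03010) and 2.27 (VIT_00s0301g00160), with limma adjusted p = 0.0453 and 0.0481, and the response of the latter in K51-40 alone, 1.28, did not pass (adjusted p = 0.0674). Each of these 3 calls held in 3 of 16 fits with an array left out. COX6b (VIT_02s0012g00490), a subunit of the respiratory cytochrome c oxidase, had 1.42 (limma adjusted p = 0.033), which held in 6 of 16. Its probe may share signal with that of SVP, as said above. A gene annotated as heat shock protein binding (VIT_10s0116g01350) had 1.67 (limma adjusted p = 0.0253), which held in 12 of 16.

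Genes that fell with salt in K51-40 and had no called response in Cabernet Sauvignon included enzymes of stilbene and flavonoid synthesis, besides NRT1.4, which had the widest difference of the class. The 105 probes of this class had a median response of −0.77 in K51-40, against 0.28 in Cabernet Sauvignon and 0.08 in 140 Ruggeri. A stilbene synthase (VIT_10s0042g00930) was at 10.42, 10.68, 10.72 and 10.80 in K51-40 control and at 8.33, 8.81, 9.69 and 9.75 in salt. In Cabernet Sauvignon it was at 9.16, 9.25, 9.48 and 9.61 in control and at 9.17, 9.68, 10.12 and 10.14 in salt. The K51-40 groups did not overlap and those of Cabernet Sauvignon did. It fell by 1.51 in K51-40 (limma adjusted p = 0.00339), and the responses differed by −1.91 (SE 0.38, limma adjusted p = 0.0193). A gene annotated as chalcone synthase (VIT_16s0100g00860) was at 12.97, 13.01, 13.28 and 13.56 in K51-40 control and at 11.60, 12.04, 12.16 and 12.19 in salt, against 11.15 to 11.31 and 11.06 to 11.90 in Cabernet Sauvignon. It fell by 1.21 (limma adjusted p = 0.000687) with a difference of −1.60 (SE 0.25, limma adjusted p = 0.00389). Its neighbours by number, VIT_16s0100g00850 and VIT_16s0100g00880, are annotated as stilbene synthases. Which of the 2 enzymes it encodes was not tested.

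All 14 annotated stilbene and chalcone synthases, a group put together after the calls were seen, had a lower value with salt in K51-40, between −1.51 and −0.64. In Cabernet Sauvignon 13 of the 14 were above 0, with a range of −0.24 to 0.50, and in 140 Ruggeri they ran from −0.32 to 0.25. The difference was called in 10 of the 14, all lower in K51-40, beside 3.81% of annotated genes and 0.56% of all genes. The annotation was given mainly to genes that changed on these arrays, so the count is not independent evidence. These 10 had differences of −1.91 to −1.14 and limma adjusted p between 0.00389 and 0.0481, and in 6 of them both probes were called. Most are tandem copies of near-identical sequence, so 1 transcript may bind the probes of several, and the number of independent genes is uncertain. The call of VIT_16s0100g00850 (−1.35, limma adjusted p = 0.00885) held with every array left out, whereas that of stilbene synthase 2 (VIT_16s0100g00930, −1.39, limma adjusted p = 0.0412) held in 5 of 16.

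PAR-1a (VIT_16s0050g00430) showed the same shape. It was at 8.64, 8.66, 8.71 and 9.23 in K51-40 control and at 7.32, 7.40, 7.59 and 7.66 in salt. In Cabernet Sauvignon it was at 7.38, 7.93, 8.03 and 8.47 in control and at 8.21, 8.32, 8.62 and 8.93 in salt. It fell by 1.32 in K51-40 (limma adjusted p = 0.00123), and the responses differed by −1.89 (SE 0.29, limma adjusted p = 0.00336). All 3 genes with this annotation, grouped after the calls were seen, were called lower, beside 3.81% of annotated genes and 0.56% of all genes. The annotation went mainly to genes that changed on these arrays, so the count is not independent evidence. A carbonic anhydrase (VIT_08s0007g03240), which interconverts carbon dioxide and bicarbonate, fell by 1.12 in K51-40 with a difference of −1.52 (limma adjusted p = 0.00505). Its second probe gave −0.75 and was not called (limma adjusted p = 0.242). A transducin family gene (VIT_05s0077g02330) fell by 1.18 with a difference of −1.42 (limma adjusted p = 0.0166).

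Other members of this class, named after their values were seen, included regulators of defence and of DNA methylation. EDS1 (VIT_17s0000g07370), a hub of basal and resistance gene defence in Arabidopsis, fell from 11.68 ± 0.26 to 10.88 ± 0.17 in K51-40 (SD, n = 4) and was at 13.37 ± 0.07 and 13.43 ± 0.20 in Cabernet Sauvignon, a difference of −0.87 (limma adjusted p = 0.0422). A DNA (cytosine-5)-methyltransferase (VIT_12s0034g02560) fell by 1.83 in K51-40 and was −0.01 in Cabernet Sauvignon, a difference of −1.82 (SE 0.31, limma adjusted p = 0.00731). In Cabernet Sauvignon this probe was well above background on 2 of 4 control arrays and 4 of 4 salt arrays, and the gene's other probe on 1 and 0. The control counts include the scan of Cabernet Sauvignon control replicate 3, which did not match its column. A lack of response in Cabernet Sauvignon can therefore not be read from these probes. For the 2 called genes with this annotation, the probe with the smaller p gave −1.05 to −0.95 (limma adjusted p between 0.00046 and 0.00431). The difference of −1.82 is thus from the wider of the gene's probes. Asparagine synthetase (VIT_06s0004g06830), which makes the nitrogen carrier asparagine, fell by 0.62 at 1 probe and by 0.58 at the other in K51-40, with differences of −1.05 and −0.96 (limma adjusted p = 0.00772 and 0.012).

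Genes that changed in Cabernet Sauvignon with no called response in K51-40 held the widest differences of all. The 48 probes that rose had a median of 1.03 in Cabernet Sauvignon, −0.03 in K51-40 and 0.43 in 140 Ruggeri. Germin-like protein 3 (VIT_14s0060g02750), of a family of extracellular proteins that includes oxalate oxidases and superoxide dismutases, was at 7.71, 7.89, 8.49 and 8.81 in Cabernet Sauvignon control and at 11.80, 11.94, 12.73 and 13.05 in salt. The K51-40 arrays lay at 8.14, 8.22, 8.35 and 8.41 in control and at 8.59, 9.20, 9.27 and 9.44 in salt. The groups overlapped in neither variety, and the step was far wider in Cabernet Sauvignon. It rose there by 4.15 (limma adjusted p = 4.84e-09), was 0.84 higher in K51-40 (adjusted p = 0.077), and the responses differed by −3.31 (SE 0.36, limma adjusted p = 8.62e-05). Its second probe gave −1.35 (limma adjusted p = 0.163). A neighbouring germin-like gene (VIT_14s0060g02760) rose by 1.96 with a difference of −1.95 (limma adjusted p = 0.00232). The second probe of this neighbour gave −0.96 and was not called (limma adjusted p = 0.213).

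The cytochrome P450 CYP89A6 (VIT_14s0036g00210) had the smallest p of the named genes. It was at 7.71, 7.94, 7.94 and 8.11 in Cabernet Sauvignon control and at 10.47, 10.49, 10.63 and 11.46 in salt. In K51-40 it was at 9.67, 9.70, 9.80 and 10.24 in control and at 9.13, 9.46, 9.55 and 9.80 in salt. It rose by 2.84 in Cabernet Sauvignon (limma adjusted p = 1.24e-08), was −0.37 in K51-40, and the responses differed by −3.21 (SE 0.26, 95% interval −3.76 to −2.67, limma adjusted p = 3.32e-06). The second probe gave −3.19. In 140 Ruggeri the response was 0.85. CYP82A2 (VIT_14s0036g00140) rose by 2.43 with a difference of −2.67 (limma adjusted p = 0.000306), but its second probe gave 0.10. The unannotated GSVIVT01000102001 went from 6.84, 6.91, 7.22 and 7.88 to 10.73, 10.80, 11.46 and 11.90 in Cabernet Sauvignon, against 7.17 to 7.66 and 7.49 to 8.34 in K51-40. Its difference was −3.34 (SE 0.35, limma adjusted p = 5.39e-05), with −0.17 at the second probe. Within control and within salt, the Cabernet Sauvignon arrays came in the same order for it, for GSVIVT01000101001 and for germin-like VIT_14s0060g02750. These probes may share signal, which was not tested, so they may not be separate genes.

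A galactinol synthase (VIT_14s0060g00730), the first enzyme of raffinose sugar synthesis, was at 6.07, 6.22, 6.27 and 6.41 in Cabernet Sauvignon control and at 7.49, 7.52, 7.68 and 7.82 in salt. In K51-40 it lay between 7.84 and 8.01 in control and between 8.01 and 8.16 in salt. It rose by 1.38 in Cabernet Sauvignon (limma adjusted p = 3.56e-07), and the responses differed by −1.22 (SE 0.16, limma adjusted p = 0.000532). A second galactinol synthase (VIT_14s0060g00810) rose by 1.64 with a difference of −1.23 (limma adjusted p = 0.0192). Its second probe gave −0.95 and was not called (limma adjusted p = 0.0609). Of the 4 annotated genes, grouped after the calls were seen, 2 were called lower, beside 3.81% of annotated genes and 0.56% of all genes. In VIT_01s0127g00470 the sign was opposite, at 0.59 and 0.48 for its probes, neither called. A class IV chitinase (VIT_05s0094g00220), which degrades fungal walls, rose by 0.69 with a difference of −1.10 (limma adjusted p = 0.0263), a call that held in 9 of 16 fits. Named after its values were seen, a class III peroxidase (VIT_13s0067g02360) rose from 8.06 ± 0.22 to 9.64 ± 0.25 in Cabernet Sauvignon (SD, n = 4) and was at 7.31 ± 0.10 and 7.20 ± 0.16 in K51-40. Its difference was −1.69 (SE 0.20, limma adjusted p = 0.000359).

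The 24 probes that fell in Cabernet Sauvignon only had a median of −0.92 there, 0.36 in K51-40 and −0.14 in 140 Ruggeri. A short-chain alcohol dehydrogenase (VIT_08s0040g01200) was at 12.61, 12.77, 12.79 and 12.92 in Cabernet Sauvignon control and at 11.64, 11.88, 11.89 and 11.92 in salt. In K51-40 it was at 11.78, 11.92, 12.20 and 12.27 in control and at 11.66, 12.62, 12.72 and 12.73 in salt. It fell by 0.94 in Cabernet Sauvignon (limma adjusted p = 0.00894), 3 of 4 K51-40 salt arrays lay above the controls, and the responses differed by 1.33 (SE 0.25, limma adjusted p = 0.0152). A class V aminotransferase (VIT_04s0044g01150) went from 9.49, 9.60, 9.80 and 9.94 to 8.47, 8.56, 8.57 and 8.74 in Cabernet Sauvignon, with a difference of 1.60 (SE 0.31, limma adjusted p = 0.0166) and 0.29 at its second probe. Expansin-like B1 (VIT_00s1355g00020), of a family that loosens cell walls, fell by 1.25 with a difference of 1.67 (limma adjusted p = 0.0247), which held in 10 of 16 fits and was 0.04 at the second probe. Named after its values were seen, ferric reduction oxidase 4 (VIT_16s0050g00990), of the family that reduces iron for uptake, fell by 1.03 and 0.97 at its probes in Cabernet Sauvignon, with differences of 1.28 and 1.19 (limma adjusted p = 0.0029 and 0.00507).

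Markers of leaf tissue had lower values with salt in both varieties at most genes, 6 of 8 in K51-40 and 7 of 8 in Cabernet Sauvignon, with median responses of −0.45 and −0.35. Their summed level, which the brightest genes weigh most, did not overlap between control and salt in Cabernet Sauvignon only. The summed level of 8 photosynthetic genes was 19260 to 25790 on the Cabernet Sauvignon control arrays and 12550 to 15910 on its salt arrays, against 19890 to 27750 and 19180 to 28340 in K51-40. All 8 were well above background on every array, and in none was the difference between the responses called. The part of photosynthetic or other cells in the responses above was not tested, and in pooled roots fewer cells of a type and less RNA per cell cannot be told apart. The 4 root markers were HKT1, NIP1;2, TIP2;3 and a gene annotated NRT1-5, which is not the NRT1.5 (VIT_02s0012g01160) described below. Their summed level was 2448 to 3954 in K51-40 control and 3552 to 6425 in salt, and 2119 to 3192 and 1890 to 2626 in Cabernet Sauvignon. Of these 4, only TIP2;3 was called.

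The gene lists were made from the annotation, which the study gave mainly to genes that changed on these arrays. Their counts are therefore not independent of the data, and 2.60% and 3.81% of the 2731 annotated genes were called higher and lower, against 0.484% and 0.56% of all genes. Of 71 genes of phenylpropanoid, flavonoid and stilbene synthesis, 2 were called higher in K51-40 and 11 lower, and 55 had a difference below 0. Their median difference was −0.46, from −0.62 in K51-40 and 0.06 in Cabernet Sauvignon, beside 0.01 over all genes. Of the 11 lower, 10 were the stilbene and chalcone synthases described above, so this count largely repeats that group. The other was a flavonol 3-O-glucosyltransferase (VIT_19s0014g02070, −0.81). The 2 higher were a chalcone reductase (VIT_01s0011g06440, 1.03) and an isoflavone reductase (VIT_07s0031g03070, 0.89).

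Of 96 defence genes, 1 was called higher and 9 lower, with a median difference of −0.03. A pair of β-1,3-glucanases, which cleave callose and fungal glucans, had −1.77 (VIT_06s0061g00120) and −1.62 (VIT_08s0007g06040), with limma adjusted p = 0.0495 and 0.0481, and these calls held in 5 and 4 of 16 fits. Of 5 genes with this annotation only these 2 had a difference below 0, and the others reached up to 0.21. A disease resistance gene (VIT_09s0002g07710) had −1.13 (limma adjusted p = 0.00965) and held in all 16. Of 74 cell wall genes, 4 were called higher (PGIP1, the polygalacturonase, expansin-like B1 and the fasciclin FLA8) and 2 lower (CSLG3 and a laccase). Of 32 genes of abscisic acid and water stress, 2 were called higher, both late embryogenesis abundant proteins, and 3 lower, the 2 galactinol synthases and a protein phosphatase 2C. Of 10 water channels 2 were called higher, of 26 heat shock genes 2 higher and of 32 mitochondrial genes 2 higher. None of 5 circadian clock genes was called. Their median responses were 0.85 in K51-40, 0.93 in Cabernet Sauvignon, and 0.75 for 140 Ruggeri, but the genes did not share a direction. CCA1 and LCL1 had lower values with salt in each variety, and the APRR7 genes and GIGANTEA had higher values.

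**Figure D3:**
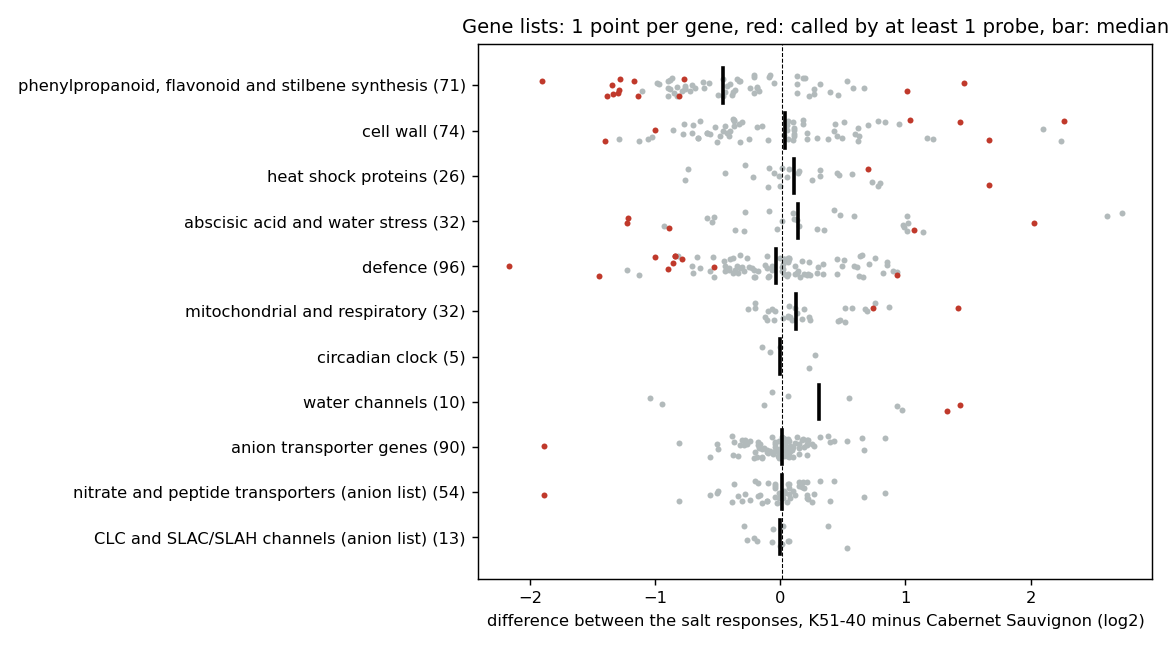
Difference between the salt responses (K51-40 minus Cabernet Sauvignon, log2) of the genes of each list, 1 point per gene from its brighter probe, with red points for genes called by at least 1 probe, a bar at the median and a dashed line at the median of all genes, 0.01. The number of genes stands in parentheses. The phenylpropanoid list has its median at −0.46, and the 90 anion transporter genes centre on 0.02 with NRT1.4 apart.

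Most anion and sodium transporters did not pass the test of a difference, and their intervals show what these arrays leave possible. HKT1 (VIT_11s0103g00050), a sodium carrier that in Arabidopsis retrieves sodium from the xylem, fell by 1.01 in K51-40 (limma adjusted p = 0.00573) and was −0.28 in Cabernet Sauvignon. The responses differed by −0.73 (95% interval −1.30 to −0.16, limma adjusted p = 0.247). NRT1.5 (VIT_02s0012g01160), which loads nitrate into the xylem in Arabidopsis, was 0.42 in K51-40 and −0.42 in Cabernet Sauvignon, a difference of 0.84 (95% interval 0.34 to 1.34, limma adjusted p = 0.11). NRT1.8 (VIT_15s0021g00330), which removes nitrate from the xylem in Arabidopsis, had 0.51 and 1.02, a difference of −0.51 (limma adjusted p = 0.626).

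An ALMT1 gene (VIT_08s0105g00250) had 0.66 in K51-40 and 0.17 in Cabernet Sauvignon, a difference of 0.48 (95% interval −0.14 to 1.11, limma adjusted p = 0.524). The other ALMT1 genes had 0.19 (VIT_06s0080g00170) and −0.40 (VIT_06s0009g00450). The sodium/proton exchanger SOS1 (VIT_01s0011g06550) had 0.25 (95% interval −0.70 to 1.19, limma adjusted p = 0.868), and the anion channel SLAH3 −0.25 (limma adjusted p = 0.75). The nitrate efflux carrier gene NAXT2 (VIT_06s0004g03530) had −0.17. Its neighbour NAXT1 (VIT_06s0004g03520) was well above background on 1 of 4 K51-40 control arrays and on 0 of 4 salt arrays, so its difference is not interpreted. The signs of SOS1, NAXT2 and ALMT1 (VIT_06s0009g00450) turned under other processing. Of 54 nitrate and peptide transporter genes only NRT1.4 was called, and of 13 CLC and SLAC/SLAH genes 0, beside 1.04% of all genes. At the brighter probe of each gene, limma gave an unadjusted p under 0.05 for 8 of the 54 and 3 of the 13. Over all 26241 genes it did so for 3674.

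The 140 Ruggeri arrays lie outside the contrast and give a separate response for the same probes. Of the 48 probes that rose in Cabernet Sauvignon only, 47 were also higher with salt in 140 Ruggeri, where 49.8% of all probes were higher, and 2 of them passed the test there. Of the 24 that fell, 18 were lower. For the classes called in K51-40 only, 60 of 103 rising probes were higher and 24 of 105 falling probes were lower in 140 Ruggeri. All 21 probes with opposite responses that were lower in K51-40 were higher in 140 Ruggeri, by a median of 0.24, and 20 of the 28 that were higher in K51-40 were lower there, with a median of −0.21. Probes of 1 gene or of near-identical genes are not independent, and 3 control and 3 salt arrays are few, so these counts are a description.

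**Figure D4:**
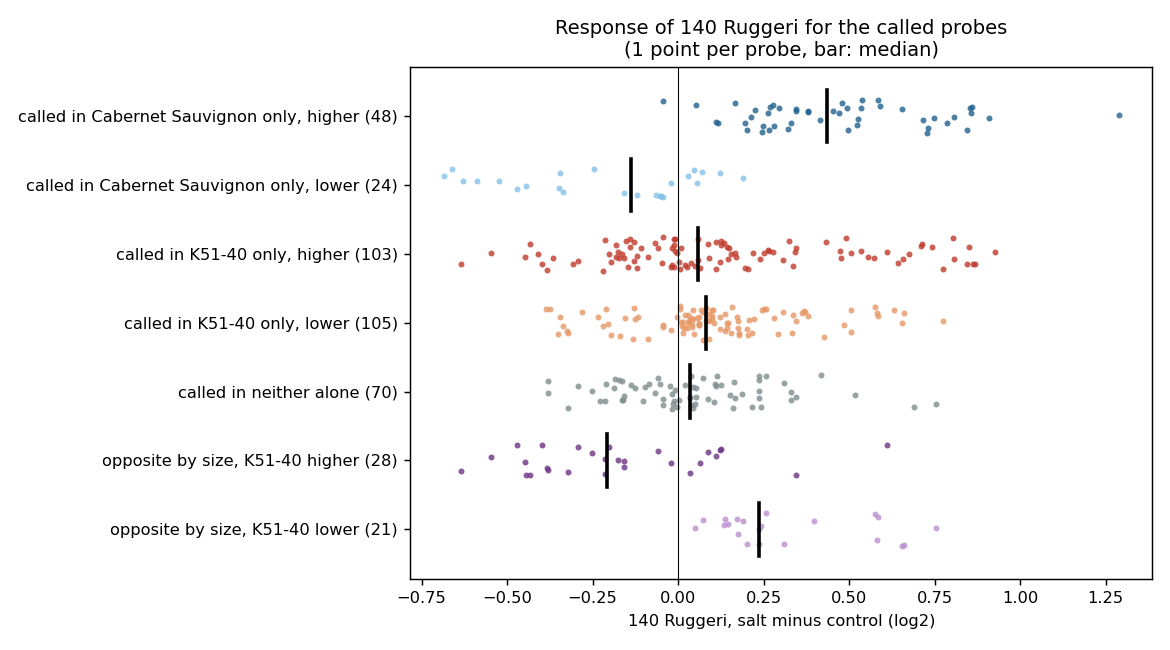
Salt response in 140 Ruggeri (salt minus control, log2) of the probes called between K51-40 and Cabernet Sauvignon, 1 point per probe and a bar at the median, by class with the number of probes in parentheses. Opposite by size means responses of at least 0.5 with opposite signs, and these probes also appear in the other classes. Probes that rose in Cabernet Sauvignon only have a median of 0.43 and all but 1 lie above 0, while those called in K51-40 only centre near 0.

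The 2 probes of a gene were compared, which share the arrays and so are no independent replicate. The second probe of the gene had the same sign of difference for 338 of the 353 called probes, against 71.8% over all probes with a second probe. It was itself called in the same direction for 158 and was below 0.5 in size, or of opposite sign, for 74. The class that fell in K51-40 only had the same sign in 105 of 105, and the class that rose there in 94 of 103.

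The number of genes depended on the values used. When the scanner intensities were processed again with quantile normalization and ComBat, 51 genes were called, of which 50 were among the 274. Leaving out Cabernet Sauvignon control replicate 3, whose scan did not match its column, gave 350, of which 242 were among the 274. Without any batch correction 12 genes were called, and with the scan date in the model 14. NRT1.4 kept its sign under every alternative run, between −2.74 and −1.43, and lost its call in 7 of them, among them all 5 that start from the scanner intensities with all arrays. CSLG3 ran between −1.73 and −1.08 and CYP89A6 between −3.36 and −2.52, and they lost their calls in 5 and 6.

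**Figure D5:**
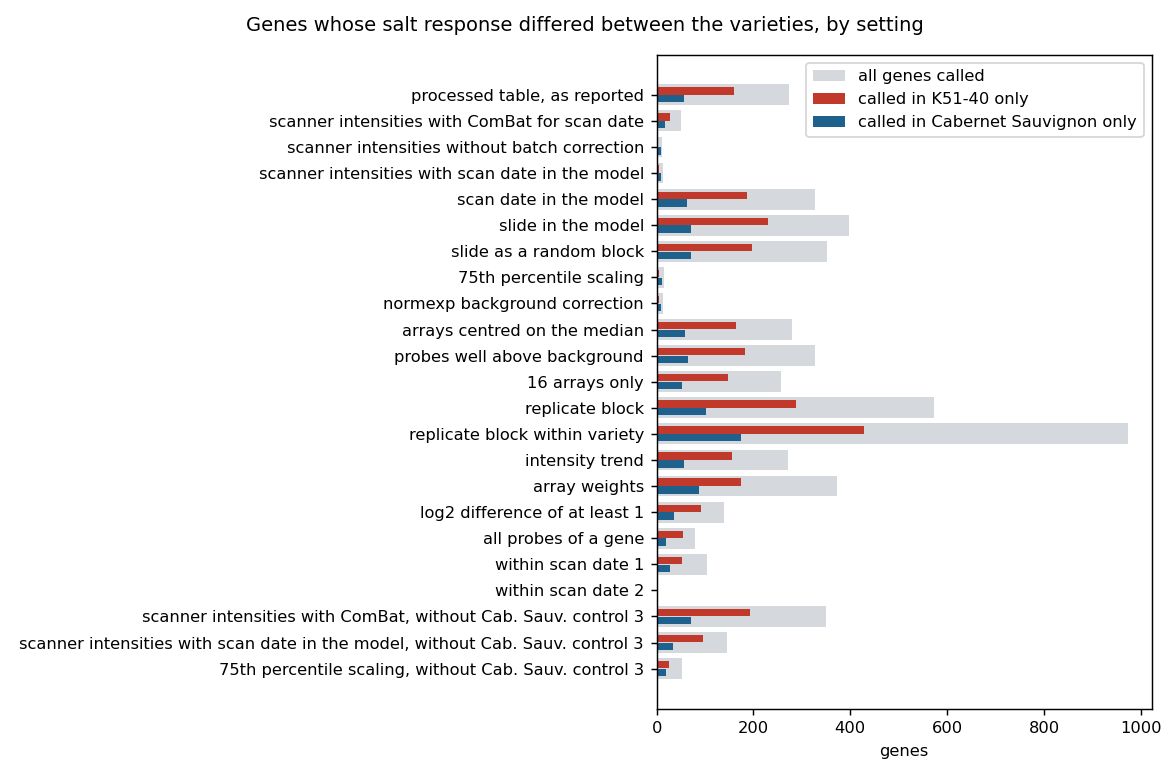
Number of genes whose salt response differed between K51-40 and Cabernet Sauvignon under each processing setting, with grey bars for all called genes and red and blue bars drawn over them for genes called in K51-40 only or in Cabernet Sauvignon only. The top bar is the result as reported, 274 genes. Settings that start from the scanner intensities with all arrays give 12 to 51 genes, and leaving out Cabernet Sauvignon control replicate 3 raises the ComBat setting to 350.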

How the data were processed

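Root RNA was hybridised to single-colour custom Agilent arrays. The authors extracted the median Cy3 intensity with Agilent Feature Extraction 10.7.3, took log2, normalized by quantiles and corrected with ComBat for batch effects that the methods tie to the dates of hybridisation, and these log2 values were deposited as a table. The deposited scanner intensities were used only for alternatives. Statements that a probe was well above background use the flags of the same scans, including that of Cabernet Sauvignon control replicate 3. The probe filter that the methods describe, by sequence match, was not repeated. Whether ComBat kept the groups is not given in the sources used here, and a test on corrected values can make p too small.

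Spots were averaged per probe. limma 3.58.1 (R 4.3.3) fitted 1 mean for each of 6 groups over 22 arrays, with Benjamini-Hochberg adjustment over 52478 probes. Calls required a log2 difference of 0.5 or more at an adjusted p of 0.05 or less, and a gene was called by at least 1 probe. Labels name separate replicates, and p-values measure the spread between these pools.

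The members, lists and tests were chosen with earlier results of these data known. Named genes were, per class, the 6 with the largest difference among those without overlap of the arrays and the 4 largest annotated, the 4 largest called of each list, and the transporters the study discusses. The script was tested on simulated data. Alternatives changed the values, batch handling, scaling, model, threshold or arrays, and 3 of them were chosen after seeing the data.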

Additional observations from a re-analysis of the deposited data

Results flagged for a closer look

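The salt response differed between K51-40 and Cabernet Sauvignon for 274 genes (1.04% of genes) by a test of the difference itself. It was called for 50 of the 60 named genes. Apart from the anion and sodium transporters, these were picked from the called genes, so that count was fixed by the choice. Of those transporters only NRT1.4 was called. For NRT1.4 the difference was −1.98.

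In each named gene and group of 4 arrays, the highest or lowest array was compared with the other 3 by Dixon's test. Of 240 such groups 18 had an array that stood apart, where chance gives about 1 in 20. In K51-40 control, replicate 2 was low for Erg-1 (VIT_07s0005g00870, 7.50 against 8.08 to 8.18) and for GSVIVT01019872001 (10.51 against 11.30 to 11.43). Replicate 4 was low for VIT_06s0004g03010 (7.14 against 7.63 to 7.69) and SLAH3 (6.50 against 6.85 to 6.91) and high for PAR-1a (VIT_16s0050g00430, 9.23 against 8.64 to 8.71). In K51-40 salt, replicate 1 was high for GSVIVT01019872001 (13.96 against 13.35 to 13.36) and low for NAXT2 (6.48 against 6.79 to 6.82). Replicate 2 was low for SVP (VIT_03s0017g00390, 9.68 against 10.27 to 10.31), replicate 3 high for NRT1.8 (8.21 against 7.70 to 7.76) and replicate 4 low for the short-chain alcohol dehydrogenase VIT_08s0040g01200 (11.66 against 12.62 to 12.73).

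In Cabernet Sauvignon control, replicate 1 was high for GSVIVT01036369001 (9.04 against 8.51 to 8.60) and replicate 2 low for the galactinol synthase VIT_14s0060g00810 (7.64 against 7.97 to 8.02). In Cabernet Sauvignon salt, replicate 1 was low for ALMT1 (VIT_06s0080g00170, 6.26 against 6.74 to 6.77) and VIT_08s0040g01200 (11.64 against 11.88 to 11.92), and replicate 2 for VIT_01s0011g03820 (6.37 against 6.54 to 6.57). Replicate 3 was high for TIP2;3 (9.28 against 8.88 to 8.93) and VIT_06s0004g03010 (8.39 against 8.11 to 8.14), and replicate 4 for CYP89A6 (VIT_14s0036g00210, 11.46 against 10.47 to 10.63).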

How the results depend on the processing

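Counts below are in the order all genes whose responses differed, opposite and called in both, opposite by size, K51-40 only and Cabernet Sauvignon only, and were 274, 2, 35, 159 and 57 as reported. From the scanner intensities they were 51, 1, 8, 27 and 17 with ComBat, 12, 0, 3, 2 and 9 without batch correction, 14, 1, 3, 4 and 10 with scan date in the model, 15, 1, 6, 4 and 11 with scaling to the 75th percentile, and 14, 1, 3, 4 and 10 with normexp. Without Cabernet Sauvignon control replicate 3, chosen after seeing the data, they were 350, 8, 42, 193 and 72 with ComBat, 146, 3, 29, 96 and 34 with scan date in the model and 52, 3, 23, 26 and 19 with the 75th percentile. Of the 353 called probes, 348 or more kept their sign in each of these, and of the 50 called named genes 11 kept their call with ComBat and 46 with ComBat without that array.

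On the processed values, the counts were 328, 6, 36, 187 and 62 with scan date in the model, 397, 4, 49, 231 and 71 with slide as a term, 352, 6, 38, 196 and 72 with slide as a random block, 328, 7, 40, 182 and 65 for bright probes, 373, 12, 39, 175 and 88 with array weights, and 256, 3, 27, 147 and 52 with the 16 arrays only. A difference of at least 1 left 140, 2, 35, 92 and 36, and a call by all probes of a gene 79, 2, 19, 55 and 20. Scan date 1 alone gave 105, 1, 46, 52 and 27, and scan date 2 alone 1, 0, 0, 0 and 1, with few arrays in each. With the replicate number as a replicate block the counts were 572, 13, 45, 287 and 102, and within each variety 974, 20, 60, 428 and 175. The labels do not say that a number pairs samples. The deviations of control and salt arrays of 1 number correlated at 0.309 to 0.427 in K51-40, at 0.242 to 0.346 in 140 Ruggeri, and at 0.125, 0.216, −0.352 and 0.373 in Cabernet Sauvignon, where the arrays of number 3 came from different scan dates. Every control array correlated best with the salt array of its own number, except that of Cabernet Sauvignon number 3, a hint of pairing from the data, but with 1 pair below 0 the block was not used. Centring on the median and an intensity trend left all counts within 1.5 times.

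Leaving out each array in turn gave 149 to 360 genes, 1 to 15 opposite and called in both, 19 to 61 opposite by size, 81 to 219 in K51-40 only and 36 to 71 in Cabernet Sauvignon only. The K51-40 count was lowest without K51-40 control replicate 4 and the Cabernet Sauvignon count without Cabernet Sauvignon control replicate 3. None of the called named genes reversed. Of the transporters that were not called, SOS1 (0.25) was −0.33, −0.45, −0.43, −0.44 and −0.41 and NAXT1 (0.17, a probe not well above background in K51-40 salt, so that its sign has no meaning) was −0.54, −0.80, −0.66, −1.17 and −0.48 in the 5 scanner settings in the order above, ALMT1 VIT_06s0009g00450 (−0.40) was 0.02 in scan date 1, NAXT2 (−0.17) was 0.19 in scan date 2, and with arrays left out SOS1 ran from −0.07 to 0.51 and NAXT2 from −0.33 to 0.02. The cause of these changes was not tested.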
